A study of Mus musculus with 25 samples.

Results

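The lungs of FP-KO mice 14 days after bleomycin were set against the lungs of FP-KO mice on Day 0, with 4 arrays in each group, 8 of the 25 arrays of the series. FP is the receptor for prostaglandin F2α, a lipid mediator, and its gene is Ptgfr. The members were chosen by title, as the arrays named for FP-KO mice on these days, and all came from female mice. Bleomycin (1 mg/kg, dissolved in 40 ul saline) was instilled through the trachea on Day 0. The FP-KO Day 0 lungs carry the same receptor knockout as the Day 14 lungs, and their labels name the same instillation without saying how long after it the tissue was taken. Strain, age and the kind of knockout allele are not stated in the labels. The other 17 arrays came from 4 FP-KO lungs of Day 7 and from wild-type (WT) lungs, 5 of Day 14, 4 of Day 7 and 4 of Day 0. Each array is titled as 1 mouse. Nothing else says that the samples are separate animals, so p-values measure the spread between these arrays.

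Bleomycin breaks DNA, and in the mouse lung a single dose into the airway injures the alveolar epithelium. An inflammatory phase with recruited macrophages and proliferating cells is followed by a phase in which fibroblasts lay down collagen, elastin and other matrix proteins, commonly examined around the end of the second week. FP is known from mouse work as a receptor whose loss lessens this fibrosis, so the series asks how genes change over time in its absence.

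Values are intensities of the Affymetrix mouse 430 2.0 array, in which groups of short probes (probe sets) report 1 transcript each. They were floored at 24.3, taken to log2 and quantile-normalised, and are printed back on the linear scale as normalised intensity. Changes are log2 differences, Day 14 minus Day 0, followed by ± and limma's standard error. A gene is called, and said to have risen or fallen, where its Benjamini-Hochberg adjusted p in limma was under 0.05 over all 12062 genes tested.

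The 4 Day 14 arrays were not alike. On the first principal component, which held 42.0% of the variance between all arrays, FP-KO Day 14 No. 1, 3 and 4 lay at 1.44, -5.37 and -3.87 and No. 2 lay at -28.9, within the range of the FP-KO Day 0 arrays, whose highest was at -24.8. The second component held 16.9%, and there No. 1 and 2 lay at 28.3 and 30.1, against -0.07 and -1.48 for No. 3 and 4 and -5.31 to -2.86 for the Day 0 arrays. WT Day 14 No. 1 to 3 also lay near 28 on the second component (27.7 to 28.5) and WT Day 14 No. 4 and 5 near 0 (1.35 and -2.28). No label names a batch that would match this division. The 18S ribosomal RNA probe set read 746.1, 6339, 230.8 and 211.7 on Day 14 No. 1 to 4, against 6648.1, 484.9, 2140.2 and 308.9 on Day 0 No. 1 to 4. The ratio of 3′ to 5′ Actb signal, a sign of RNA length, was 1.38, 1.56, 1.39 and 1.40 on Day 14 and 1.55, 1.31, 1.39 and 1.42 on Day 0. No. 2 was thus high in both of these readings, as Day 0 No. 1 was. The same ratio for Gapdh was 0.688, 0.699, 0.738 and 0.734 on Day 14 and 0.860, 0.723, 0.695 and 0.742 on Day 0. There Day 0 No. 1 was the highest, and Day 14 No. 2 lay among the other Day 14 arrays. Results are given with all 4 Day 14 arrays and without No. 2.

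No. 2 stood apart in its rises and not in its falls. In the fit without No. 2, 93 genes were called with a rise of at least 1 on the log2 scale, and on No. 2 the median of these genes was at 5.94% of their change in the other 3 arrays, with 54 of the 93 above the Day 0 mean. Of 31 genes called with a fall of at least 1 in the same fit, 28 were below the Day 0 mean on No. 2, and its median was at 83.2% of the change in the other 3. For the other arrays the genes were those called in fits that include No. 2, so the gene sets differ (10, 25 and 31 rises for No. 1, 3 and 4). On No. 1 the measure gave 146% for rises and 117% for falls. On No. 3 it gave 110% and 67.4%, and on No. 4 84.1% and 58.5%. No. 2 thus shared most of the size of the falls and little of that of the rises.

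**Figure D1:**
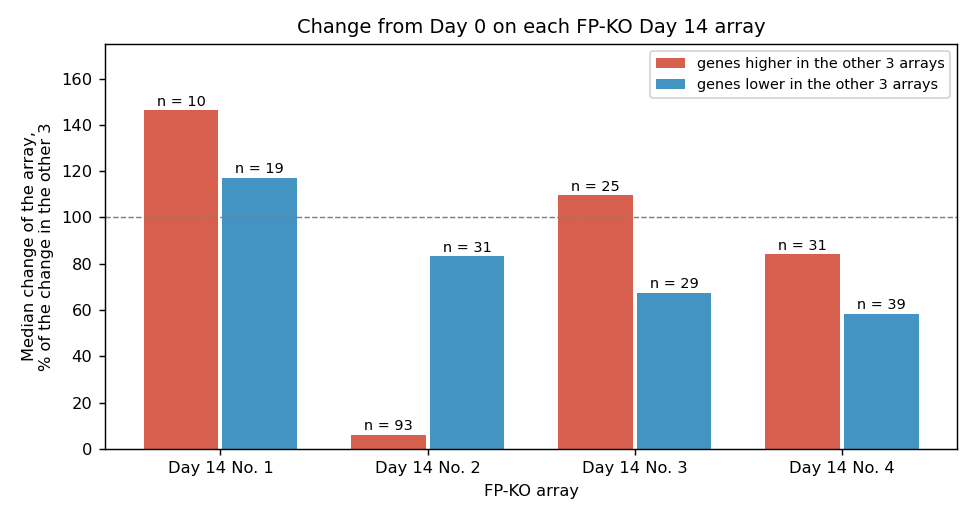
Median change from the FP-KO Day 0 mean on each FP-KO Day 14 array, as a percentage of the change in the other 3 Day 14 arrays (vertical axis), for the genes that a fit without that array called with a rise (red) or a fall (blue) of at least 1 on the log2 scale. The number of genes is above each bar, and the dashed line marks 100%. The bar for rises on No. 2 stands at 5.94%, against 84.1% to 146% on the other arrays. Those bars are over other genes, called in fits that include No. 2.

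Ptgfr, the knocked-out gene, was near the floor in both groups. Its main probe set read 24.3, 33.6, 46.8 and 27.5 on Day 14, against 58.9, 30.9, 53.7 and 30.5 on Day 0, a change of -0.38 ± 0.24 (adjusted p = 0.402). The lowest WT array lay above the highest FP-KO array in 3 of the 5 Ptgfr probe sets. Where the probes lie relative to the deleted sequence is not stated in the labels. The markers of lung tissue were present on all 8 arrays, for example the surfactant gene Sftpc (32400 to 35808 on Day 14 and 32400 to 33931 on Day 0). Heart genes were present too, such as the atrial myosin light chain Myl7 (2529 to 4728 on Day 14 and 3331 to 5238 on Day 0). The brown fat gene Ucp1 was at the floor on every Day 14 array and on Day 0 No. 3 and 4, and read 123 and 558 on Day 0 No. 1 and 2.

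With all 8 arrays, 223 genes rose (1.85% of those tested) and 170 fell (1.41%), 393 in all (3.26%). A change of at least 1 was reached by 36 of the rises (0.298%) and 27 of the falls (0.224%). Without No. 2, 384 genes rose (3.18%) and 185 fell (1.53%), 569 in all (4.72%), with 93 rises (0.771%) and 31 falls (0.257%) that reached 1. Both fits called 317 of these genes in the same direction, 80.7% of the calls with all arrays and 55.7% of those without No. 2. The groups did not overlap in 1191 genes (9.87%), higher on Day 14 in 591 (4.90%) and lower in 600 (4.97%), and without No. 2 in 2144 (17.8%). The exact permutation test of 1 gene cannot go below p = 0.0286 for 4 arrays against 4, or below 0.0571 for 3 against 4, both two-sided. The median change over all genes was 0.01 with and without No. 2.

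These calls rest on a spread estimated over all 25 arrays. The median SD within a group was 0.205 on the log2 scale in FP-KO Day 14 lungs (0.168 without No. 2), against 0.156 in FP-KO Day 0 lungs and 0.152 to 0.174 in the other groups. With the spread taken from the 8 arrays compared alone, limma called 0 genes (smallest adjusted p = 0.0583), while 1919 genes (15.9%) had an unadjusted p under 0.05. The same fit without No. 2 called 262 genes. Leaving out No. 1, the array with the largest changes, left 46 genes higher and 55 lower. The Day 14 arrays of both genotypes were also divided by the second component. With FP-KO Day 14 No. 3 and 4, and with WT Day 14 No. 4 and 5 as the other Day 14 arrays in the fit, 178 genes rose and 89 fell in FP-KO lungs. With FP-KO Day 14 No. 1 and 2, and WT Day 14 No. 1 to 3, 869 rose and 876 fell. This division was taken from the same data, and No. 1 and 2 lay far from Day 0 on that component. The counts of the array sets therefore describe the division and do not test it.

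The largest rise without overlap was that of Trem2, a lipid-sensing receptor of macrophages, and the next were the matrix gene elastin, Eln, and the p53 target Cdkn1a, an inhibitor of the cell cycle. Trem2 read 378, 30.7, 369 and 397 on Day 14 No. 1 to 4, against 24.3, 25.9, 24.7 and 24.3 on Day 0, where 2 arrays were at the floor. Day 14 No. 1, 3 and 4 stood far above Day 0, and No. 2 just above it. The change was 3.03 ± 0.53 (adjusted p = 0.0046) and 3.94 without No. 2. Eln read 9676, 1586, 4577 and 3674 on Day 14, against 1474, 1303, 704 and 628 on Day 0 (2.06 ± 0.38, adjusted p = 0.0057). Cdkn1a read 3986, 1333, 2647 and 2564, against 951, 1310.2, 791 and 616 (1.47 ± 0.31, adjusted p = 0.0128). In both, No. 2 lay just above the highest Day 0 array.

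The other genes among the 12 largest rises included C1qtnf6, a secreted protein with a collagen-like and a C1q domain, at 265, 197, 183 and 179.8 on Day 14, against 89.7, 73.3, 98.9 and 68.3 on Day 0 (1.32 ± 0.19, adjusted p = 0.00112). Here No. 2 lay among the other Day 14 arrays. The growth factor Igf1 rose by 1.29 ± 0.24, the protease inhibitor A2m by 1.21 ± 0.27, the laminin chain Lama1 by 1.19 ± 0.27 and Lcn2, a secreted iron-siderophore carrier of the acute phase, by 1.18 ± 0.17. Gm6958 rose by 1.21 ± 0.32. A2m and Lama1 were at the floor on 3 of 4 Day 0 arrays, so their changes may be larger than given. Depdc1a (1.21 ± 0.33) and Ndc80, part of the kinetochore that binds chromosomes to the spindle (1.21 ± 0.21), are genes of dividing cells that the cell cycle list below does not hold. Lcn2 had 11082, 5187, 8313 and 9186 on Day 14, against 3377, 3726, 3678 and 3564 on Day 0, with every Day 14 array above every Day 0 array.

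**Figure D2:**
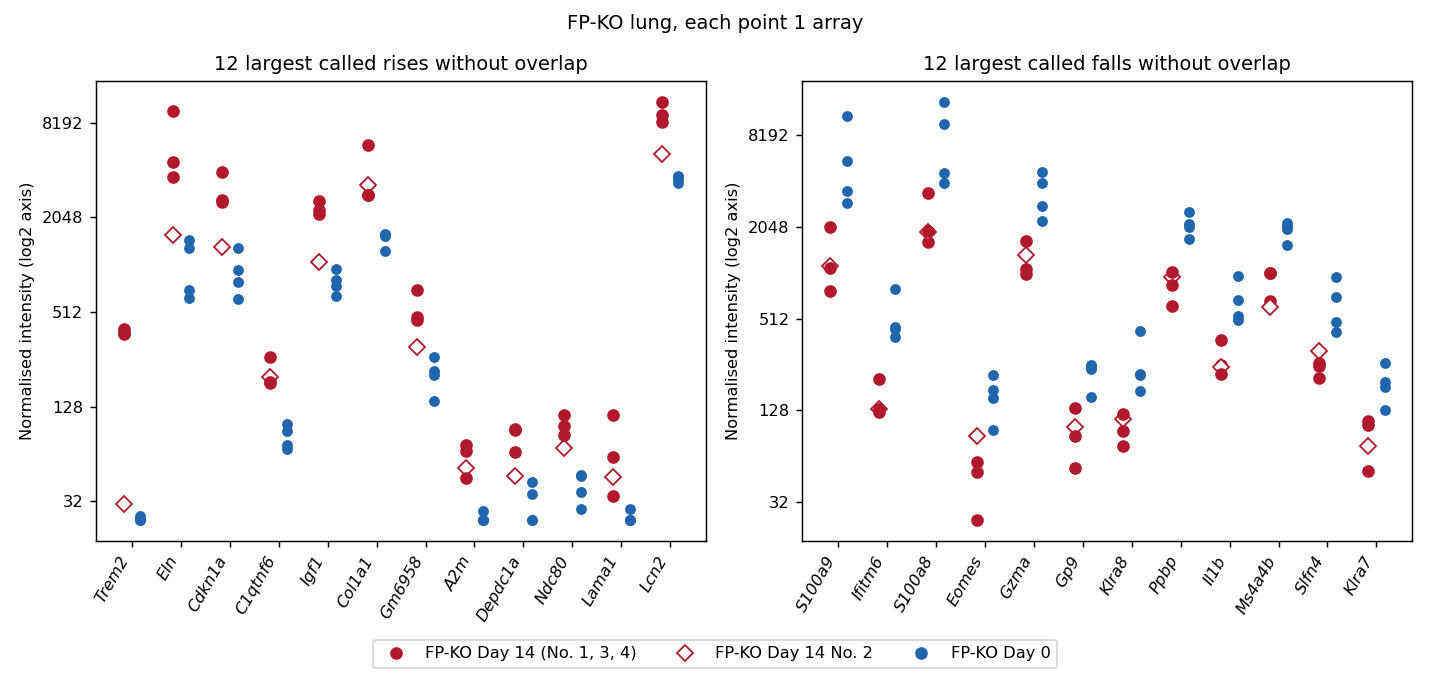
Normalised intensity (log2 axis) of the 12 largest called rises and the 12 largest called falls without overlap, with each point 1 FP-KO array. Red points are Day 14, with No. 2 as an open diamond, and blue points are Day 0. No. 2 is the lowest Day 14 point in Trem2 (30.7) and Eln (1586), and lies among the other Day 14 points in most of the falls.

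Of 24 fibrillar collagen chains and collagen-processing genes 10 rose and 0 fell (13 and 0 without No. 2), with a median change of 0.51 over the 24. Col1a1, a chain of type I collagen, had 5921, 3299, 2854 and 2838 on Day 14, against 1548, 1603, 1249 and 1579 on Day 0 (1.25 ± 0.25, adjusted p = 0.00835). Its partner Col1a2 had 13796, 8619, 9582 and 9794, against 7513, 5813, 5561 and 6596 (0.70 ± 0.14, adjusted p = 0.00984). In both type I chains every Day 14 array, No. 2 included, lay above every Day 0 array. The type V chain Col5a2 (0.83 ± 0.22) and P4ha3, a subunit of the enzyme that hydroxylates collagen prolines (1.15 ± 0.29), also rose, but in these No. 2, at 2210.2 and 38.6, lay within the Day 0 range of 1796 to 2899 and 24.3 to 50.1.

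Of 20 elastic fibre and matricellular genes 7 rose (9 without No. 2), with a median of 0.59. Beside Eln they included Tnc, which encodes the injury-induced glycoprotein tenascin C, with 966, 218, 999 and 1102 on Day 14, against 329, 316, 233 and 165 on Day 0 (1.47 ± 0.39, adjusted p = 0.0374). No. 2 lay within the Day 0 range and the other 3 arrays well above it. The latent TGF-beta binding protein Ltbp2 (1.01 ± 0.21) and the collagen-binding proteoglycan Fmod (0.79 ± 0.18) rose with all 4 arrays above Day 0. Of 15 basement membrane genes 4 rose (5 without No. 2), with a median of 0.40. These were Sparc, a matrix protein that binds collagen and is also on the matricellular list (0.69 ± 0.12), the laminin chains Lamb3 (0.62 ± 0.13) and Lama5 (0.62 ± 0.17), and Col4a2, a chain of type IV collagen (0.57 ± 0.11). In these 4 genes every Day 14 array, No. 2 included, lay above every Day 0 array. Lama5 was called by a narrow margin with all arrays (adjusted p = 0.0499) and not without No. 2 (adjusted p = 0.077).

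Matrix proteases and their inhibitors differed between the Day 14 arrays. Of 19 genes 5 rose with all arrays and 12 without No. 2, with a median of 0.56. Mmp12, the macrophage elastase, had 2502, 153, 1302 and 1933 on Day 14, against 155, 209.5, 220.5 and 407 on Day 0 (2.09 ± 0.55, adjusted p = 0.0359). On No. 2 it was below every Day 0 array. The gelatinase Mmp2 rose with no overlap (1.17 ± 0.20, adjusted p = 0.00389), while Mmp19 (1.17 ± 0.24) and the collagen-degrading cathepsin Ctsk (0.90 ± 0.23) rose with No. 2 inside the Day 0 range. The mean of the list stood at 0.91, -0.21, 0.76 and 0.74 above the Day 0 mean on Day 14 No. 1 to 4, and between -0.15 and 0.12 on the Day 0 arrays.

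Among 17 TGF-beta and activin genes 3 rose (4 rose and 1 fell without No. 2), with a median of 0.06. The activin chain Inhbb had 652, 569, 560.2 and 547 on Day 14, against 386, 286, 365 and 341 on Day 0 (0.76 ± 0.12, adjusted p = 0.00214). The ligand Tgfb3 (0.47 ± 0.12) and the receptor Tgfbr1 (0.42 ± 0.10) rose as well, with no overlap between the groups. Of 12 contractile and myofibroblast genes 0 were called (1 fell without No. 2), and their median was -0.13. Of 12 resident fibroblast markers the elastic fibre protein Mfap4 rose (1.04 ± 0.19, adjusted p = 0.00538), and the list's median was -0.16. Of all genes 3.26% were called, so few calls in lists of this size say little about contractile and resident fibroblast markers.

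Genes induced by p53, the transcription factor activated by DNA damage, rose in 6 of 15 (7 without No. 2), with a median of 0.31. Beside Cdkn1a these included the receptor Eda2r (1.04 ± 0.26), the cyclin Ccng1 (0.88 ± 0.18) and the RNA-binding protein Zmat3 (0.84 ± 0.14). Zmat3 had 1241, 937, 893 and 982 on Day 14, against 674, 583, 545 and 461 on Day 0, with No. 2 among the rest of its group. Ccng1 had 5398, 2608, 5477 and 5542, against 2835, 2311, 2429 and 2319, with No. 2 inside the Day 0 range. Genes of the injured, transitional epithelium rose in 2 of 14 (4 without No. 2), these being Cdkn1a and the keratin Krt7 (0.46 ± 0.10). Of 12 alveolar type 1 markers Igfbp2, a carrier of insulin-like growth factors, rose (0.97 ± 0.13, adjusted p = 0.00112) with 8716, 5037, 5786 and 5955 on Day 14, against 3517, 2674, 3195 and 3450.1 on Day 0. The median change of that list was 0.05, and of 13 alveolar type 2 markers 0 were called (median 0.10).

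Macrophage markers rose in 5 of 17 with all arrays and in 12 of 17 without No. 2, with medians of 0.50 and 0.75. The fifth was the cathepsin Ctsk, which the protease list also holds. The 3 chains of complement C1q, made by tissue macrophages, were among them. C1qb had 4226, 1160.0, 3422 and 3315 on Day 14, against 1188, 1250.2, 1191 and 1211 on Day 0 (1.17 ± 0.27, adjusted p = 0.02). C1qc (1.18 ± 0.24), C1qa (1.14 ± 0.23) and the scavenger receptor Msr1 (1.02 ± 0.26) rose by similar sizes. In all 4 of these genes No. 2 was inside or below the Day 0 range, and No. 1, 3 and 4 were above it. The list's mean lay at 0.81, -0.15, 0.76 and 0.83 on Day 14 No. 1 to 4, and between -0.08 and 0.14 on the Day 0 arrays. In tissue RNA, more or fewer cells of a type cannot be told apart from more or less RNA per cell.

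Lipid-handling macrophage genes rose in 3 of 14 (4 without No. 2), with a median of 0.22. With Trem2 these were Gpnmb, a membrane glycoprotein of lipid-laden macrophages, and the lipid carrier Apoe. Gpnmb had 2473, 301, 1599.9 and 1543 on Day 14, against 374, 308, 302 and 285 on Day 0 (1.88 ± 0.38, adjusted p = 0.00993), with No. 2 inside the Day 0 range. Apoe had 15133, 9291, 13439.5 and 13239.5, against 5798, 6379.7, 6312 and 6795 (0.99 ± 0.15, adjusted p = 0.00214). In Apoe all 4 Day 14 arrays were above Day 0. Alternative activation genes were called in 0 of 11 with all arrays (2 rose without No. 2), and dendritic cell and MHC class II genes in 0 of 16 either way.

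Secreted mediators went both ways. Of 25 cytokine and chemokine genes 2 rose and 1 fell with all arrays (5 rose and 1 fell without No. 2). Igf1 had 2602, 1066, 2151 and 2279.8 on Day 14, against 813, 642, 752 and 967 on Day 0, with no overlap. The chemokine Ccl6 rose by 0.59 ± 0.15, with No. 2 inside the Day 0 range. Il1b, the inflammatory cytokine interleukin 1β, fell, with 252, 245, 221 and 371 on Day 14, against 534, 971, 498 and 675 on Day 0 (-1.28 ± 0.27, adjusted p = 0.0111). Of 11 acute-phase and complement genes Lcn2 and the serpin Serpina3n (0.94 ± 0.22) rose, and 5 rose without No. 2. Of 19 interferon-stimulated genes the GTPase Gbp2 fell (-0.51 ± 0.12, adjusted p = 0.025), also without No. 2, and the median of the list was 0.00.

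The falls were led by markers of neutrophils, NK cells and platelets, on all 4 Day 14 arrays. Of 9 neutrophil markers 3 fell (2 without No. 2), with a median of -1.04. S100a9, a chain of the neutrophil protein calprotectin, had 773, 1139, 1102 and 2051 on Day 14, against 5514, 11029, 2954 and 3526 on Day 0 (-2.08 ± 0.38, adjusted p = 0.00538). Its partner S100a8 had 1635, 1909, 1933 and 3402, against 9730.4, 13542, 3995 and 4598 (-1.72 ± 0.35, adjusted p = 0.00993). The groups did not overlap in either gene, and Day 0 No. 1 and 2 were the highest. The growth factor receptor Csf3r fell by 1.07 on the log2 scale with all arrays (adjusted p = 0.0404) and was not called without No. 2 (adjusted p = 0.0501). The list's mean lay at -1.10, -0.98, -0.86 and -0.69 on Day 14 No. 1 to 4, against 0.47, 0.70, -0.73 and -0.44 on Day 0 No. 1 to 4, so that Day 0 No. 3 lay within the Day 14 range.

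Of 12 NK and cytotoxic cell genes 7 fell, and 7 fell without No. 2, with medians of -0.81 and -0.82. Gzma, a granule protease of cytotoxic cells, had 1004, 1329, 1087 and 1645 on Day 14, against 4708, 3993, 2240.1 and 2826 on Day 0 (-1.41 ± 0.23, adjusted p = 0.00389). Eomes, a transcription factor of NK cells, had 24.3, 86.9, 50.2 and 58.8, against 217, 153, 95.2 and 173 (-1.61 ± 0.30, adjusted p = 0.00538). The Ly49 receptor Klra8 (-1.31 ± 0.25) and granzyme B, Gzmb (-1.16 ± 0.20), fell too, all without overlap. The list's mean was -1.06, -0.83, -0.95 and -0.70 on Day 14 No. 1 to 4, below the Day 0 range of -0.36 to 0.27. Klra7, another Ly49 receptor (-1.21 ± 0.27), Ms4a4b, a membrane protein of T and NK cells (-1.26 ± 0.20), the membrane protein Ifitm6 (-1.78 ± 0.24) and Slfn4, a Schlafen family member of myeloid cells (-1.25 ± 0.33), were also among the 12 largest falls.

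Platelet and erythroid genes fell in 5 of 8 (6 without No. 2), with a median of -0.86. Ppbp, a platelet chemokine, had 620.5, 961, 1039 and 847 on Day 14, against 2052, 2555, 1704 and 2133 on Day 0 (-1.30 ± 0.25, adjusted p = 0.00661). The platelet tubulin Tubb1 (-1.18 ± 0.18) and the platelet adhesion receptor chains Gp9 (-1.32 ± 0.35) and Gp1bb (-0.94 ± 0.25) fell with it. The erythroid haem enzyme Alas2 had 2347, 4074, 1970.1 and 2156 on Day 14 and 3577, 4195, 2972 and 2305 on Day 0, a change of -0.34 ± 0.47 (adjusted p = 0.739), so the 5 members that fell, the chemokine Pf4 among them, were platelet genes. Of 10 T cell markers Cd8b1 (-0.93 ± 0.17), Cd3d (-0.69 ± 0.15) and Cd2 (-0.58 ± 0.15) fell, and 2 fell without No. 2. Of 10 B cell markers Ms4a1 (-0.90 ± 0.24), Cd79b (-0.85 ± 0.20) and Fcer2a (-0.82 ± 0.23) fell, and 1 fell without No. 2. Of 9 plasma cell genes Prdm1, a regulator of plasma cell fate, fell (-0.46 ± 0.12). The blood content of the lungs was not measured apart from these genes, and its part in these falls was not tested.

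**Figure D3:**
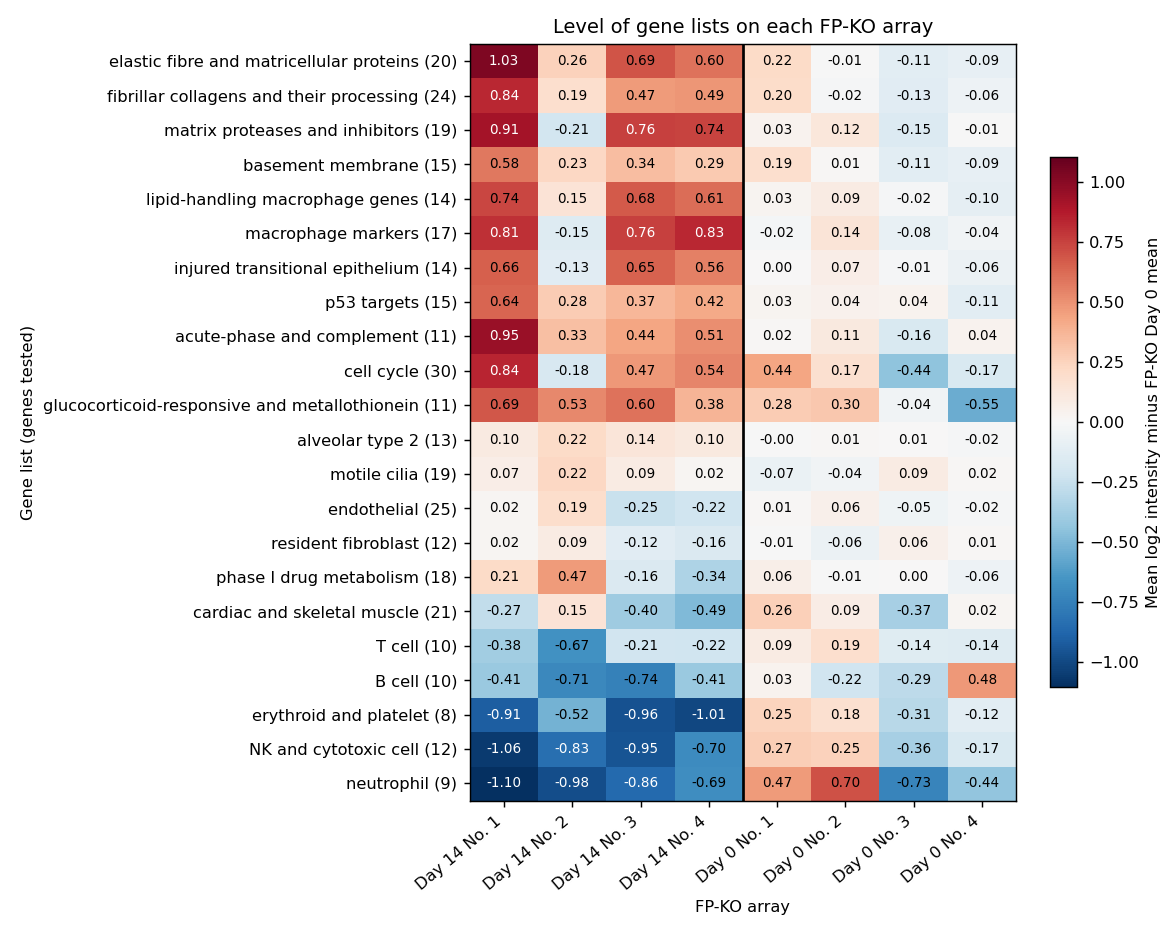
Mean log2 intensity of 22 gene lists on each FP-KO array, minus the mean of the FP-KO Day 0 arrays (colour and number), with the number of genes tested in brackets. Day 14 arrays are left of the black line and Day 0 arrays right of it. No. 2 is at -0.15 for macrophage markers and -0.21 for matrix proteases, where the other Day 14 arrays are at 0.74 to 0.91, and at -0.83 for NK and cytotoxic cell genes beside -1.06 to -0.70.

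Of the 30 genes of the cell cycle list 0 were called on Day 14 with all arrays and 5 rose without No. 2, with medians of 0.39 and 0.67. These 5, Cdk1, Kif20a, Pbk, Mki67 and Kif11, were named after their values were seen. Cdk1, the kinase that drives entry into mitosis, had 542, 144, 496 and 416 on Day 14, against 297, 251, 154 and 187 on Day 0. No. 2 lay below every Day 0 array and the other 3 above every one, a change of 0.73 ± 0.31 with all arrays (adjusted p = 0.197) and of 1.16 without No. 2 (adjusted p = 0.00641). Mki67, which encodes the proliferation antigen Ki-67, had 745, 421, 661 and 632, against 555, 444, 185 and 337 (0.77 ± 0.24, adjusted p = 0.0737, and 0.95 without No. 2, adjusted p = 0.0261). The mitotic motors Kif20a (1.08 without No. 2) and Kif11 (0.83) and the kinase Pbk (0.96) made up the rest. The Day 0 arrays differed among themselves in these genes, with a list mean of 0.44, 0.17, -0.44 and -0.17 on Day 0 No. 1 to 4.

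The promoters of cell cycle genes often hold a CCAAT box and a CHR element (TTTGAA), through which NF-Y and the DREAM and MuvB complexes act. Those of Cdk1 and Mki67 are shown because the pair rose together without No. 2. They are from RefSeq (GRCm38.p6), 250 bases before to 50 after the gene's start, at chr10:69352863-69353162 and chr7:135716330-135716629, both on the minus strand, written 5′ to 3′ with matches to CCAAT and TTTGAA on either strand (ATTGG and TTCAAA on the other) in capitals.
Cdk1: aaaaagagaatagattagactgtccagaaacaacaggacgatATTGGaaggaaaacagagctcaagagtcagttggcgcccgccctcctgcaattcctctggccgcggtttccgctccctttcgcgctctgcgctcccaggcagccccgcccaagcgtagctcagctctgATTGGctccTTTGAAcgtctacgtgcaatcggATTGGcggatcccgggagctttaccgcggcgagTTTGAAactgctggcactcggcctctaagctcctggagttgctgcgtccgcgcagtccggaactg
Mki67: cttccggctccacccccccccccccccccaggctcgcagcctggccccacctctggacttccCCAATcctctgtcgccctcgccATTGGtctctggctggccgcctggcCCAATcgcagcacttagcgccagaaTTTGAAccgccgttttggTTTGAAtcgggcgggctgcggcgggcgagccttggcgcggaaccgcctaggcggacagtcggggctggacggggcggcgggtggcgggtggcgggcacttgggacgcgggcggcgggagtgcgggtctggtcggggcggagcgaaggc
Each of these windows held 3 matches to CCAAT and 2 to TTTGAA. Of the 24 cell cycle genes of the list with a promoter in the table, 19 (79.2%) held CCAAT, against 37.9% of all 27025 promoters. TTTGAA was in 14 (58.3%), against 18.1%, and both were in 13 (54.2%), against 7.12%. Matches of the 2 motifs can share a base. A match describes the letters of the window and not binding. For the circadian clock list the E-box CACGTG was in 4 of 13 promoters (30.8%), against 7.24% of all, and 0 of its 15 genes were called on Day 14.

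Most lists of other cell types and functions had few or no calls on Day 14, where 3.26% of all genes were called. In cardiac and skeletal muscle (21 genes, median -0.23), adipocyte (8, -0.43), endothelial (25, -0.07), motile cilia (19, 0.13) and club and goblet cell genes (14, -0.04), 0 were called with all arrays. Without No. 2, 1 adipocyte gene rose, 1 endothelial gene fell and 2 club and goblet cell genes fell. Of 18 phase I drug metabolism genes the epoxide hydrolase Ephx1 rose (0.36 ± 0.10), and of 20 secretory pathway chaperones the disulfide isomerase Pdia3 rose (0.42 ± 0.11), neither being called without No. 2. Of 11 glucocorticoid-responsive and metallothionein genes Cdkn1a and the metallothionein Mt1 (0.96 ± 0.23) rose. In the lists of the clock (15 genes), NRF2 and glutathione (17), prostanoid receptors and enzymes (14), proteasome (22), mitochondrial complex I (22), sterol and fatty acid synthesis (17), immediate-early and heat-shock genes (15), and eosinophil, mast cell and basophil markers (2), 0 were called. In the sterol list 1 gene rose without No. 2.

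A further 12 genes were named as called without No. 2 and not with all arrays, the 6 of largest change each way. The rises were Ms4a7 (a membrane protein of macrophages), Cldn2 (a tight junction claudin), Adamts12 (a matrix protease), Slfn9, Ereg (the growth factor epiregulin) and Slc26a4 (an anion exchanger), by 1.46 to 1.66 without No. 2. Ms4a7 had 1115, 238, 1061 and 1160.5 on Day 14, against 355, 432, 341 and 289 on Day 0. On No. 2 it was below every Day 0 array, and on the other 3 Day 14 arrays above every one. The falls were Asgr1 (a lectin receptor), Fabp1 (a fatty acid carrier), Jakmip1, Igfbp3 (a growth factor carrier), Bex2 and 9530026P05Rik, by -1.83 to -1.01. Asgr1 had 45.4, 157, 49.6 and 29.9, against 142, 179.6, 145 and 119.9, with No. 2 inside the Day 0 range. In Jakmip1, No. 3 was the low array, at 24.3 beside 115 to 141 on the other Day 14 arrays.

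The FP-KO lungs of Day 7 give the level that preceded Day 14, and their values stand beside these as comparisons that share arrays. Against Day 0, 28 of 30 cell cycle genes had risen on Day 7 (median 1.79, with 12.6% of all genes called higher and 23.3% called in either direction). In Day 14 against Day 7, 28 of the 30 fell (median -1.34), while 1448 of all genes were called lower and 22.7% were called in either direction. Without No. 2, 24 of the 30 fell, while 4.85% of all genes were called lower and 8.85% in either direction. Cdk1 was at 2.48 on Day 7 against Day 0. The macrophage list had 14 of 17 higher on Day 7 (median 1.38), and 6 lower on Day 14 than on Day 7 (4 without No. 2). Of the 15 basement membrane genes 1 was higher and 2 lower on Day 7, and 7 were higher on Day 14 than on Day 7 (6 without No. 2), with Lamb3 at 0.69 (adjusted p = 0.00194). Trem2 was 4.39 above Day 0 on Day 7, and with all arrays its Day 14 level did not pass against Day 7 (-1.36, adjusted p = 0.0662). On Day 14 No. 2 it read 30.7, beside 369 to 397 on the other arrays of that group. With No. 3 and 4 as the only FP-KO Day 14 arrays, its change from Day 0 was 3.95. Timp1, the inhibitor of metalloproteinases, had a change of 3.23 on Day 7 and fell by 2.38 between Day 7 and Day 14. Of all genes 10.7% were called higher on Day 14 than on Day 7 (4.00% without No. 2). Phase I drug metabolism genes were higher than on Day 7 in 12 of 18 (4 without No. 2), alveolar type 2 markers in 8 of 13 (4) and alveolar type 1 markers in 7 of 12 (5). Proteasome genes were lower than on Day 7 in 14 of 22 (5 without No. 2).

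Whether the Day 14 change of FP-KO lungs differed from that of WT lungs was tested as an interaction, the FP-KO change minus the WT change. In WT lungs 4664 genes (38.7%) were called on Day 14 against Day 0, 19.1% of all genes as higher and 19.5% as lower. The difference passed in 376 genes (3.12%), with 154 (1.28%) above and 222 (1.84%) below the WT change, of which 50 (0.415%) and 111 (0.920%) differed by at least 1. Without No. 2 it passed in 124 (1.03%), with 52 above (0.431%) and 72 below (0.597%), of which 22 (0.182%) and 38 (0.315%) differed by at least 1. Within the arrays that lay together on the second component, a division taken from these same data, the result was unequal. With FP-KO Day 14 No. 1 and 2 and WT Day 14 No. 1 to 3 the difference passed in 281 genes above and 373 below. With FP-KO Day 14 No. 3 and 4 and WT Day 14 No. 4 and 5 limma passed 0 genes (smallest adjusted p = 0.0635), with 1257 (10.4%) at an unadjusted p under 0.05. No difference named in the next paragraphs was called with those 4 Day 14 arrays.

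Tnc, the inhibitor Timp1 and the adhesion molecule Chl1 were among the 8 genes furthest below the WT change. Tnc averaged 821 ± 406 in FP-KO lungs on Day 14 and 261 ± 76.7 on Day 0 (SD, n = 4 each), against 2872 ± 518 (SD, n = 5) in WT lungs on Day 14 and 219 ± 70.8 (SD, n = 4) on Day 0. The difference of changes was -2.28 with all arrays (adjusted p = 0.0256) and -1.73 without No. 2 (adjusted p = 0.037). It was -1.61 with FP-KO No. 3 and 4 and WT No. 4 and 5, and -2.93 with the others. Timp1 averaged 742 ± 265 and 390.4 ± 54.0 in FP-KO lungs on Day 14 and Day 0, against 2169 ± 516 and 299.8 ± 36.4 in WT lungs. Its difference was -1.97, -1.68 without No. 2, and -1.78 and -2.16 in the same pairs of array sets. Chl1 was at -2.50, the matricellular gene Thbs4 at -2.25, Slfn9 at -2.10, the kinetochore gene Nuf2 at -2.09, the mitotic kinase Aurkb at -2.01 and the secreted protein Wfdc17 at -1.99. All 8 were also negative in both array sets. They were chosen on these same arrays and both sets share the Day 0 arrays, so the equal sign is no separate support.

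The cell cycle list held 17 of 30 genes below the WT change and 0 above it (10 without No. 2), with a median difference of -1.35. The median was -1.46 with FP-KO No. 1 and 2 and WT No. 1 to 3 (14 genes passed), and -1.22 with the other arrays (0 passed). In WT lungs 28 of the 30 had risen, beside 19.1% of all genes. Collagen genes were below the WT change in 10 of 24 (3 without No. 2), elastic fibre and matricellular genes in 7 of 20 (2), macrophage markers in 5 of 17 (2) and matrix proteases in 4 of 19 (2). Col1a1 differed by -1.68 (adjusted p = 0.0158) and by -1.64 without No. 2 (adjusted p = 0.0364). Of the 223 genes that rose in FP-KO lungs 35 passed the test of the difference, and of the 170 that fell 5 did, beside 3.12% of all genes. The count for the falls was near that share, so it says nothing particular about them. For Trem2 the difference was -1.20 (adjusted p = 0.406), for S100a9 -0.57 (adjusted p = 0.62) and for Gzma 0.35 (adjusted p = 0.62). The Trem2 value includes No. 2, on which the gene was far below the other FP-KO Day 14 arrays.

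The 8 genes furthest above the WT change included genes of heart and fat, and all 8 were positive in both array sets. These genes too were chosen on the same arrays, so the equal sign is no separate support. Of 21 cardiac and skeletal muscle genes 21 had fallen in WT lungs, where 19.5% of all genes fell. In FP-KO lungs 0 of the 21 were called, and 15 passed the difference (7 without No. 2). The median difference of the list was 1.21 with all arrays, 1.46 with FP-KO No. 1 and 2 and WT No. 1 to 3 (19 passed), and 0.82 with the other arrays (0 passed). Myoglobin, Mb, averaged 1311 ± 577 in FP-KO lungs on Day 14 and 1171 ± 319 on Day 0, against 486 ± 125 in WT lungs on Day 14 and 1868 ± 443 on Day 0 (difference 2.04, adjusted p = 0.0193). Nppa, the atrial peptide (2.24), Cox8b, a cytochrome oxidase subunit of muscle and brown fat (2.20), and Smpx, a small muscle protein (1.89), were named with it. Heart muscle markers were present on all arrays of the FP-KO groups, and their amount in the tissue taken was not measured apart from these genes.

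Phase I drug metabolism genes were above the WT change in 10 of 18 (3 without No. 2), led by Cyp2e1, a cytochrome P450 (2.14, adjusted p = 0.0152). Its FP-KO values were 1473, 2656, 1312 and 937 on Day 14 and 1557, 1689.6, 1386 and 977 on Day 0, so that No. 2 alone lay above the Day 0 range. Motile cilia genes were above the WT change in 7 of 19 (3 without No. 2) and adipocyte genes in 2 of 8 (0 without No. 2). Adiponectin, Adipoq, differed by 1.97 (adjusted p = 0.0347), the carbonic anhydrase Car3 by 1.77 and the glutathione transferase Gsta2 by 1.75. Without No. 2 Adipoq was not called (1.75, adjusted p = 0.0915), nor was Car3 (1.43, adjusted p = 0.0852) or Nppa (2.09, adjusted p = 0.0623).

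**Figure D4:**
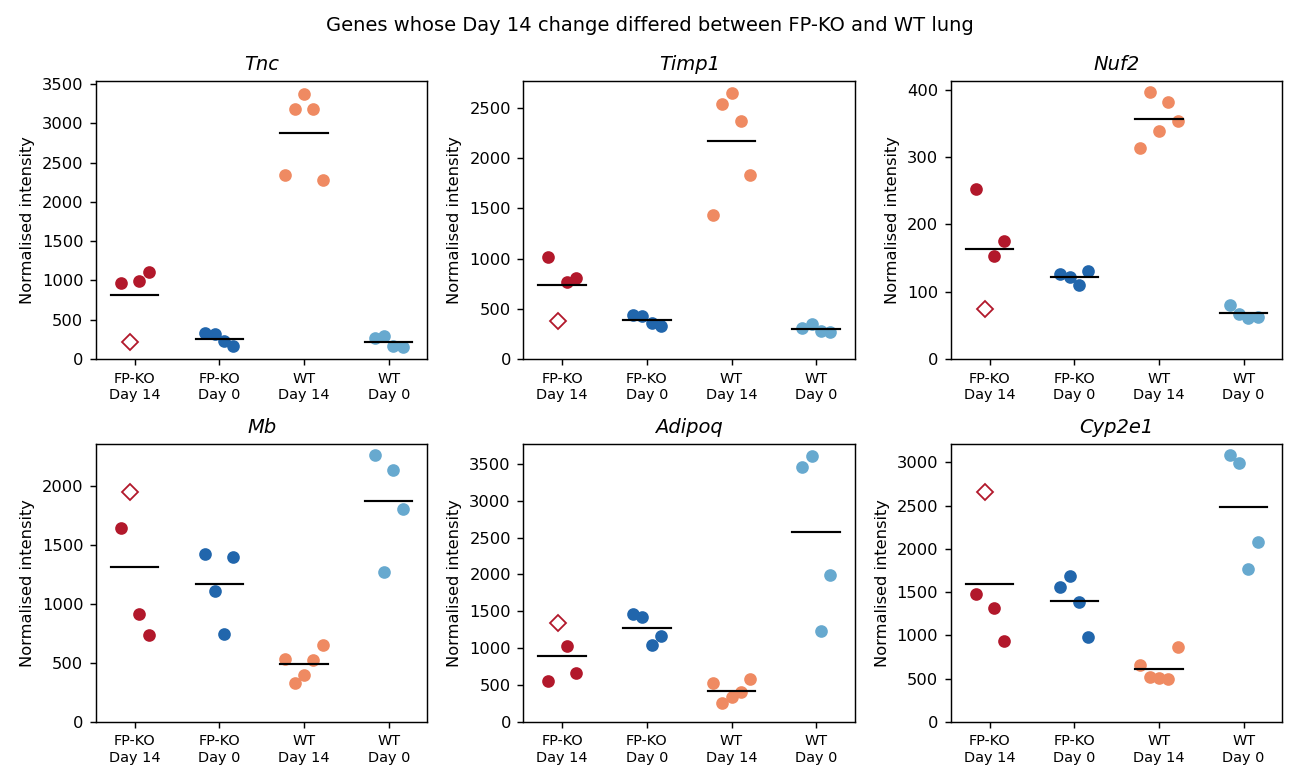
Normalised intensity of 6 genes whose Day 14 change differed between FP-KO and WT lungs, with each point 1 array, the open diamond FP-KO Day 14 No. 2, and the line the group mean. Tnc, Timp1 and Nuf2 are lower in FP-KO than in WT lungs on Day 14 (Tnc mean 821 against 2872). Mb, Adipoq and Cyp2e1 are higher in FP-KO than in WT lungs on Day 14 (Mb mean 1311 against 486).

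Across the 41 lists, the median changes in FP-KO lungs spanned -1.04 (neutrophil) to 0.59 (elastic fibre and matricellular), and those in WT lungs -1.76 (adipocyte) to 1.83 (cell cycle). Neutrophil (-1.04 in FP-KO and -0.76 in WT lungs), NK and cytotoxic (-0.81 and -0.77) and platelet and erythroid lists (-0.86 and -0.63) had negative medians in both genotypes. In these 3 lists 1 of 9, 0 of 12 and 0 of 8 genes passed the test of the difference between genotypes, beside 3.12% of all genes. With so low a share, these counts do not show that the lists changed alike in both genotypes.

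**Figure D5:**
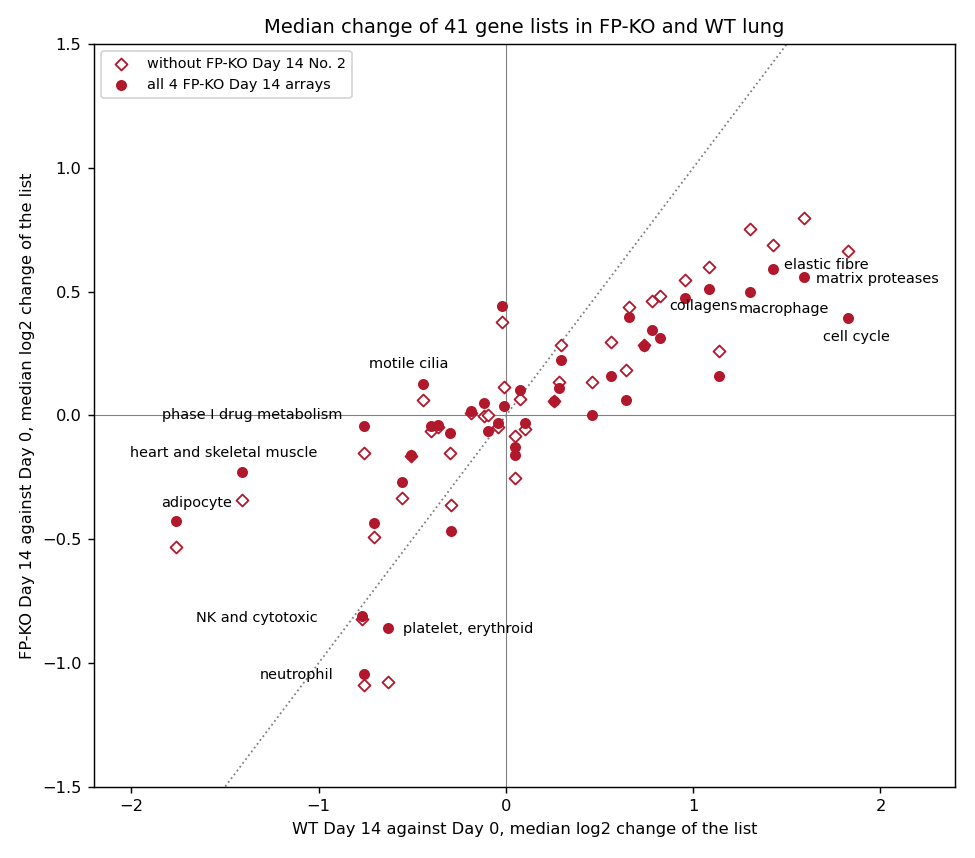
Median log2 change of 41 gene lists, Day 14 against Day 0, in FP-KO lungs (vertical axis) and WT lungs (horizontal axis), with filled points for all 4 FP-KO Day 14 arrays and open diamonds for the fit without No. 2. The dotted line marks equal change. The cell cycle list lies at 0.39 in FP-KO and 1.83 in WT lungs, and the NK and cytotoxic list near the line at -0.81 and -0.77.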

How the data were processed

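Per the labels' protocols, total lung RNA was extracted with Sepasol and 6 ug was made into biotin-labelled cRNA. The authors deposited 1 linear intensity for each of 45101 probe sets on 25 arrays, from 0 to 51673.8. Every array has a 2% trimmed mean of 500, and the labels name no software for it. Array number limits the precision.

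Here, a floor of 24.3 (percentile 20 over the whole table) was set, and values were taken to log2 and quantile-normalised, because log2 array medians spanned 0.432. Each of 18193 genes was read from its brightest probe set on average, left after 64 controls, 932 probe sets with several symbols and 9160 without one. A gene was tested if 4 or more arrays had it above their median (12062). Symbols were checked against the gene table of GRCm38.p6 (34741 of 34945 probe sets matched). In R 4.3.3, limma 3.58.1 (lmFit on 6 groups, no covariate, eBayes) was run on all arrays and without FP-KO Day 14 No. 2, and was tested on simulated data. Figures used python 3.11.15 and matplotlib 3.10.9. The members and the 41 gene lists (721 genes on the lists, 615 tested) were chosen with earlier results of these data known.

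Named genes were Ptgfr, the 12 largest called rises and falls without overlap, up to 4 called members per list, up to 8 genes each way by the difference from WT, and up to 6 each way called only without No. 2. Alternatives were other floors, filters, scalings, probe set rules, variance models, array weights, the mouse number as a block, and subsets of arrays. Probe sets without a symbol were left out.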

Additional observations from a re-analysis of the deposited data

Results flagged for a closer look

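Single arrays far from the other 3 of their group were found in 16 of the 102 named genes, with 2 groups looked at in each. Chance flags about 1 in 20 groups where values are normally distributed and genes are not chosen by them. These genes were chosen by their values and some lie at the floor, so that rate does not apply to them. FP-KO Day 14 No. 2 was the low array 6 times. It read 30.7 in Trem2 (the other 3 at 369 to 397), 2210.2 in Col5a2 (4754 to 5402), 218 in Tnc (966 to 1102), 2608 in Ccng1 (5398 to 5542), 24.3 in Thbs4 (61.1 to 73.6) and 238 in Ms4a7 (1061 to 1160.5). Day 14 No. 1 was the high array in Sparc (32916), Tgfb3 (1293) and Serpina3n (2817). Day 14 No. 4 was high in Ifitm6 (206) and Day 14 No. 3 low in Jakmip1 (24.3). Among Day 0 arrays No. 1 was high in A2m (27.8) and Thbs4 (37.3), and No. 2 was high in Lama1 (28.6) and low in Lamb3 (869.8). In A2m, Thbs4 and Lama1 the other Day 0 arrays were all at the floor of 24.3. Day 0 No. 3 was low in Col1a1 (1249) and Gp9 (156).

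The FP-KO change differed from the WT change, by the interaction term with all arrays, in 33 of the named genes. Over all genes 376 passed with all arrays and 124 without No. 2. Adipoq, Car3 and Nppa were among the named genes not called without No. 2, and were not the only ones. Without No. 2 the macrophage markers below the WT change went from 5 to 2. Elastic fibre and matricellular genes went from 7 to 2 and collagen genes from 10 to 3. The differences that follow are those with all arrays. With FP-KO Day 14 No. 3 and 4 and WT Day 14 No. 4 and 5, 0 passed. Above it were Nppa (2.24), Cox8b (2.20), Cyp2e1 (2.14), Mb (2.04), Adipoq (1.97), Smpx (1.89), Car3 (1.77), Gsta2 (1.75) and Bex2 (1.40). Matrix genes below it were Col1a1 (-1.68), Lama1 (-1.65), Col5a2 (-1.25), Col1a2 (-0.87), Tnc (-2.28), Ltbp2 (-1.20), Fmod (-0.98), Lamb3 (-0.69), Thbs4 (-2.25) and Timp1 (-1.97). Macrophage genes below it were C1qb (-1.46), Msr1 (-1.32), C1qa (-1.25) and C1qc (-1.21). Proliferation genes below it were Nuf2 (-2.09), Aurkb (-2.01), Cdk1 (-1.82), Mki67 (-1.62) and Pbk (-1.36). The rest were Chl1 (-2.50), Slfn9 (-2.10), Wfdc17 (-1.99), Ereg (-1.88) and Igf1 (-1.18).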

How the results depend on the processing

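No called gene among those named changed direction in the alternative runs that held it. These genes were chosen by their changes on the same arrays, so a change of direction was unlikely from the start. Counts moved with the arrays used. Leaving out 1 array at a time gave 46 to 384 genes higher and 55 to 198 lower, 10 to 93 and 16 to 39 of them by at least 1. For the difference from the WT change it gave 52 to 259 higher and 70 to 372 lower, 22 to 73 and 37 to 182 by at least 1. The lowest FP-KO counts came without Day 14 No. 1 (higher and lower) and without Day 0 No. 2 (lower by at least 1). Of 70 called named genes, 32 were called without Day 14 No. 1, 63 without No. 2 and 0 with the 8 arrays alone. In that last setting 0 genes were called in either direction, with or without the size limit. The difference from WT, fitted on the 17 arrays of its own groups, gave 126 lower, 73 by at least 1. The 7 arrays without No. 2 alone gave 81 lower, 68 higher by at least 1 and 17 lower by at least 1 (chosen after seeing the data, as were the array sets and the order of floor and scaling). FP-KO Day 14 No. 3 and 4 with WT Day 14 No. 4 and 5 gave 89 lower and 60 higher by at least 1, and FP-KO No. 1 and 2 with WT No. 1 to 3 gave 869 and 876, with 76 and 114 by at least 1. For the difference these sets gave 0 genes in any count, and 281 and 373, with 95 and 208 by at least 1. Array medians set equal gave 113 higher and 53 lower (15 by at least 1), and 72 and 95 for the difference. Array weights gave 455 and 271 (79 higher by at least 1), and 437 and 569 for the difference. Array weights without No. 2 gave 609 and 382 (105 higher by at least 1), and 513 and 635 for the difference (86 higher by at least 1). No filter gave 97 and 99 for the difference (33 and 49 by at least 1). Quantile normalisation before the floor without No. 2 gave 384 higher (93 by at least 1), and 54 and 75 for the difference (22 and 40 by at least 1). Groups without overlap, the exact permutation count, were 591 higher and 600 lower. With the mouse number as a replicate block 268 genes were above the WT change. Day 14 and Day 0 deviations of equal number correlated at 0.109, -0.0269, 0.0865 and 0.107. Those of unequal number lay between -0.153 and 0.0877. Whether arrays of equal number share more than the number was not tested. The causes of these shifts were not tested.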
